A study of Anas platyrhynchos with 2 samples.

Results

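The miR-146 family was followed through the small RNA of the duodenum of 1-day-old female Jingjiang ducks, an egg-laying domestic breed. The table of mature miRNAs holds 288 rows, and a row was taken as a member where its name, without the chicken prefix gga and the arm, is miR-146a, miR-146b or miR-146c. This gave 6 rows, gga-miR-146a-5p, gga-miR-146b-5p, gga-miR-146c-5p and the 3p arm of each (gga-miR-146a-3p, gga-miR-146b-3p and gga-miR-146c-3p), from 3 hairpins, where 5p and 3p are the strands cut from the left and the right side of the same precursor. The rule uses names and no measured value, although the family was picked with earlier results of these data known.

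The library named CT was read as that of ducks carried for 8 h by vehicle at 40 to 70 km per h, whose duodenum the labels call damaged by transport stress. The library named CC was read as that of ducks put in the same kind of carrying case but not transported, whose duodenum is called normal. No label spells out these library names, so the reading rests on their last letters and directions are given as CT against CC. Both groups shared breed, sex, age and natural light and temperature. The study divided 20 ducks between the groups, and the labels do not say whether a library holds 1 duck or a pool.

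Each condition has 1 library, with 5272666 counts in CT and 5772509 in CC. No difference therefore has a replicate check, no p-value is given, and every 95% interval covers counting error only. The intervals describe these libraries, not the conditions. Levels are in CPM, counts per 1e6 counts of the library, with no term for length, since a read of a mature miRNA spans the molecule and the members are all 20 to 23 nt long. Different miRNAs are compared by counts, and how evenly the library preparation captured each sequence was not measured. In whole tissue, fewer cells of a type cannot be told apart from less of a miRNA per cell.

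MicroRNAs are short RNAs that guide Argonaute proteins to messenger RNAs, mainly by pairing of the seed, bases 2 to 8 from the 5′ end. In mammals, transcription of miR-146a is switched on by NF-kB, the transcription factor activated downstream of Toll-like and interleukin-1 receptors. Its best known targets, IRAK1, a kinase, and TRAF6, a ubiquitin ligase and adaptor, carry the signal from those receptors to NF-kB, so the miRNA acts as a brake on its own inducer. In the newborn mouse, miR-146a in the intestinal epithelium takes part in tolerance to bacterial endotoxin after birth. miR-146b is made from a separate locus with the same seed. The data here measure neither NF-kB activity nor targets, so the description of the family as responsive to NF-kB is background.

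The mature sequences of the 5p arms are shown because they decide which messages the paralogs can share and how well reads can be told apart. They are printed as deposited, under their chicken names, with the seed in capitals.
miR-146a-5p: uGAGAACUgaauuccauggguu
miR-146b-5p: uGAGAACUgaauuccauaggcg
miR-146c-5p: uGAGAACUgaauuccauggacug
All 3 carry the seed GAGAACU and are identical over their first 17 bases. Counting from 1 at the 5′ end, miR-146a-5p and miR-146b-5p differ by G18A, U21C and U22G over 22 bases. miR-146a-5p and miR-146c-5p differ by G20A and U21C, so the first 19 bases of this pair are the same. miR-146b-5p and miR-146c-5p differ by A18G, G20A and G22U. The assignment of a read to a paralog thus rests on 2 or 3 bases at the 3′ end, and how the authors' mapping treated mismatches was not stated in the labels or headers.

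The 3p arms are shown because their seeds, unlike those of the 5p arms, are not shared.
miR-146a-3p: aCCCAUGGggcucaguucuucag
miR-146b-3p: cCCUAUGGauucaguucugc
miR-146c-3p: aGUCCAUGguauucaguucucu
Each of the 3 seeds is different. The longest run common to all 3 is UCAGUUCU, 8 bases that begin at base 12 of miR-146a-3p, base 11 of miR-146b-3p and base 13 of miR-146c-3p, outside each seed. miR-146b-3p, at 20 nt, lies at the lower edge of the 20 to 30 nt fragments that were isolated from the gel. In a predicted fold of the deposited hairpins, 19 of the 22 bases of miR-146a-5p, 17 of the 22 bases of miR-146b-5p and 20 of the 23 bases of miR-146c-5p paired with the opposite arm. The predicted folding energies were -39.8 kcal per mol for mir-146a (99 nt), -42.3 for mir-146b (105 nt) and -53.5 for mir-146c (129 nt).

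The GAGAACU seed stands at bases 2 to 8 in 4 of the 288 rows, or 1.39%. The row beside the members is novel_5, a predicted duck miRNA that consists of the whole of miR-146b-5p and 1 more base.
novel_5: uGAGAACUgaauuccauaggcgu
It had 3 counts in CT and 4 in CC, too few for a ratio. Its deposited position is on the minus strand of scaffold KB742512.1 from 150860 to 150971, where the table names no build; no annotation of this scaffold was used. The 60 nt of its predicted hairpin were set beside bases 19 to 78 of the mir-146b hairpin deposited under the chicken name, with differing bases in capitals.
mir-146b: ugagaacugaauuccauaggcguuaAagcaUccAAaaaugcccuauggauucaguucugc
novel_5: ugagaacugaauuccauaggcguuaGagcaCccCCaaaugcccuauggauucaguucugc
The stretches share 56 bases, and the 4 differences, A26G, U31C, A34C and A35C counted from the start of the stretch, lie between the arms. Both arms of miR-146b are therefore the same in the deposited chicken hairpin and in this predicted duck hairpin. The scaffold itself was not read, and the deposited position spans 112 bases against the 60 nt of the hairpin. Scaffold positions of miR-146a and miR-146c were not analysed here.

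The family was carried by the 5p arms of miR-146b and miR-146c, whereas miR-146a, the paralog best known as a target of NF-kB, was rare. miR-146b-5p had 51724 counts in CT and 89957 in CC, or 9810 and 15584 CPM. It stood 11th of 288 rows in CT, between miR-200a-3p and miR-27b-3p, and 6th in CC, between miR-194 and let-7f-5p, and its counting interval overlapped that of no neighbour. miR-146c-5p had 37904 counts in CT and 47806 in CC, or 7189 and 8282 CPM. It stood 18th in CT, where its interval overlapped that of let-7g-5p above it but not that of novel_113 below it, and 13th in CC, apart from miR-126-3p above and miR-30d below. Both were thus among the 20 most abundant rows of each library.

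miR-146a-5p was far below them, with 353 counts in CT and 325 in CC, or 66.9 CPM (interval 60.1 to 74.3) and 56.3 CPM (50.3 to 62.8). It stood 92nd in CT, between miR-30b-5p and miR-1416-5p, and 93rd in CC, between miR-30b-5p and miR-34a-5p, with overlapping intervals on both sides. In CT, miR-146b-5p had 147 times and miR-146c-5p 107 times the counts of miR-146a-5p. In CC these ratios were 277 and 147. Whether some reads counted as miR-146a-5p came from the abundant paralogs was not tested.

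The 3p arms followed the order of the 5p arms, b above c above a, at far lower levels. miR-146b-3p had 423 counts in CT and 469 in CC, or 80.2 CPM (72.8 to 88.2) and 81.2 CPM (74.1 to 88.9). Even as the rarer strand of its hairpin it was therefore above miR-146a-5p in both libraries, although the intervals of this pair overlapped in CT. miR-146c-3p had 105 counts in CT and 102 in CC, or 19.9 CPM (16.3 to 24.1) and 17.7 CPM (14.4 to 21.5). miR-146a-3p had 9 counts in CT and 3 in CC, which is near the limit of detection. In both libraries the order was miR-146b-5p, miR-146c-5p, miR-146b-3p, miR-146a-5p, miR-146c-3p, miR-146a-3p, and apart from the pair named above no intervals of neighbours in this order overlapped.

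In the table's order by level, miR-146b-3p lay between miR-142-3p and miR-34a-5p in CT and between miR-30c-1-3p and miR-130b-5p in CC. miR-146c-3p lay between miR-133b and miR-204 in CT and between miR-365-3p and miR-9-3p in CC. The intervals of both overlapped those of their neighbours. The counts of miR-146a-3p tied with those of other rare rows, among them miR-130a-5p and miR-17-3p in CT and miR-138-5p and miR-1597-5p in CC.

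**Figure D1:**
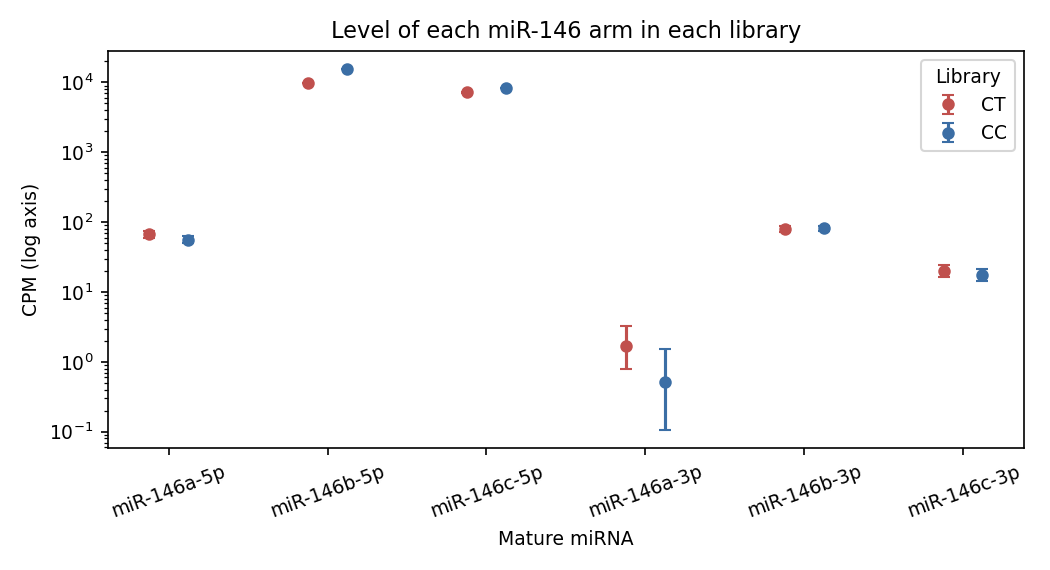
Level of each miR-146 arm, in CPM on a log axis, in the libraries CT and CC. Points are single libraries and bars the exact 95% Poisson interval. The 5p arms of miR-146b and miR-146c lie at 7189 to 15584 CPM and the other arms at 81.2 CPM or below.

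The 6 rows together held 90518 counts in CT and 138662 in CC, which is 1.72% of the CT library (exact binomial interval 1.71 to 1.73%) and 2.40% of the CC library (2.39 to 2.41%). The sum was 1.40-fold lower in CT (interval 1.39 to 1.41, log2 ratio -0.48). Of the difference of -6854 CPM, miR-146b-5p made up 84.2%, where it already held 64.9% of the family counts in CC. The rows without miR-146b-5p summed to 7358 CPM in CT and 8437 CPM in CC, a log2 ratio of -0.20 (-0.22 to -0.18).

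CT was set against CC for each arm to see whether the paralogs differed alike between the libraries. In these libraries they did not. miR-146b-5p had a log2 ratio of CT to CC of -0.67 (interval -0.68 to -0.65), or 1.59-fold lower in CT, and miR-146c-5p had one of -0.20 (-0.22 to -0.18). miR-146a-5p lay on the other side, at 0.25 (0.03 to 0.47), but with TMM scaling its interval reached from -0.02 to 0.43 and with median-of-ratios size factors from -0.04 to 0.41. The 3p arms of miR-146b and miR-146c lay near equality. miR-146b-3p had a log2 ratio of -0.02 (-0.21 to 0.17), which was 0.04 when the 10 most abundant rows were dropped from the totals, and miR-146c-3p had one of 0.17 (-0.23 to 0.58). For miR-146a-3p, at 9 counts in CT and 3 in CC, the ratio was 3.28, with a counting interval of 0.82 to 18.9, and its log2 ratio of 1.72 became 0.28 with a pseudocount of 5 CPM.

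With at least 50 counts over both libraries, 5 of the 6 members and 149 rows in all could be judged for size. At least 2-fold apart were 0 of the 5 members, against 7.38% of the 149 rows (6.04% higher and 1.34% lower in CT). At least 1.5-fold lower in CT was 1 member, miR-146b-5p, where 7.38% of all rows passed in that direction, and 0 were 1.5-fold higher, where 14.8% passed. Intervals excluded equality for 3 of 5 members, against 68.5% of all rows, a rule that reflects counting error alone. The median log2 ratio was -0.02 over the 5 members, the value of miR-146b-3p, and 0.02 over the 149 rows. This median weighs rare and abundant arms alike, whereas the summed family had a log2 ratio of -0.48. miR-146b-5p ranked 10th from the lowest ratio among the 149. Among the 41 rows with at least 10000 counts over both libraries it ranked 4th from the lowest, after miR-218-5p, miR-126-3p and miR-99a-5p, and miR-146c-5p ranked 16th.

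**Figure D2:**
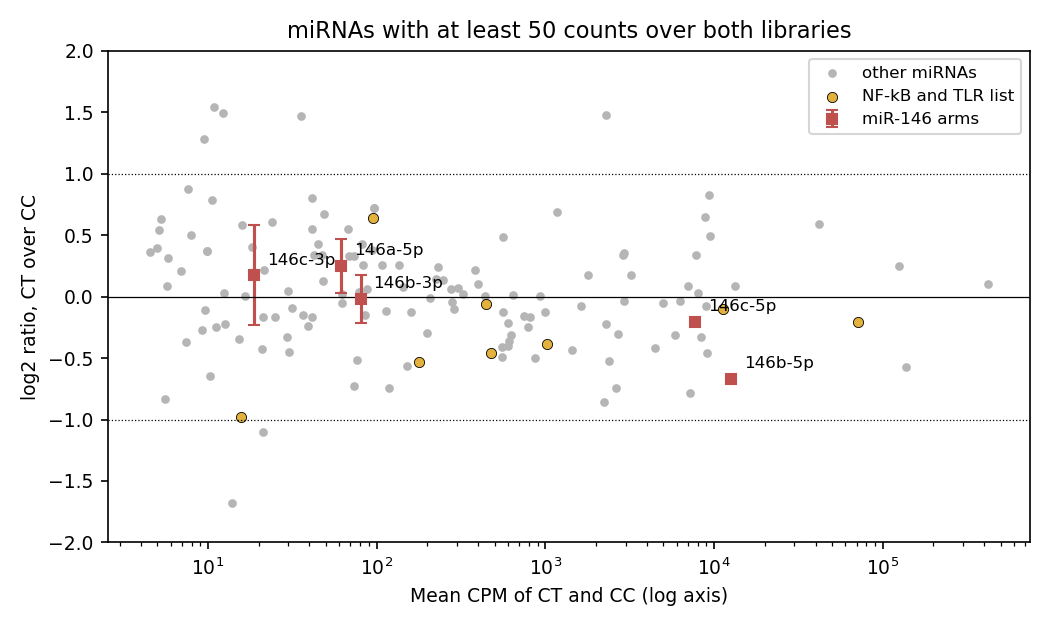
Log2 ratio of CT to CC against the mean CPM of both libraries (log axis) for miRNAs with at least 50 counts. Squares are miR-146 arms with exact 95% counting intervals. Yellow circles with a black edge are the list of miRNAs tied to NF-kB and Toll-like receptor (TLR) signalling. Small grey circles are the other miRNAs, and dotted lines mark 2-fold. Not drawn are 4 rows, which lie outside the axis or, for miR-216c with 0 counts in CC, have no ratio. miR-146b-5p lies at -0.67, below the other miR-146 arms.

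A ratio between paralogs within a library does not depend on how libraries are scaled. It compares counts, not molecules, since the capture of sequences with different 3′ ends was not measured. miR-146b-5p held 57.5% of the 5p counts of the family in CT (interval 57.2 to 57.8%) and 65.1% in CC (64.9 to 65.4%). miR-146c-5p held 42.1% in CT (41.8 to 42.4%) and 34.6% in CC (34.4 to 34.9%). miR-146a-5p held 0.392% in CT (0.353 to 0.435%) and 0.235% in CC (0.210 to 0.262%). It differs from miR-146c-5p by 2 bases, so this small share also rests on how reads were assigned, which its interval does not cover. The leading paralog was thus the same in both libraries, with a share 7.66 percentage points lower in CT.

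There were 1.36 counts of miR-146b-5p for each count of miR-146c-5p in CT and 1.88 in CC. The log2 of CT over CC of this ratio was -0.46 (exact conditional interval -0.49 to -0.44). For miR-146b-5p over miR-146a-5p it was -0.92 (-1.14 to -0.70) and for miR-146c-5p over miR-146a-5p -0.45 (-0.68 to -0.23). The intervals of all 3 pairs thus excluded equality. In CT against CC, the more abundant a paralog was, the lower its ratio, an order over 3 points only.

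**Figure D3:**
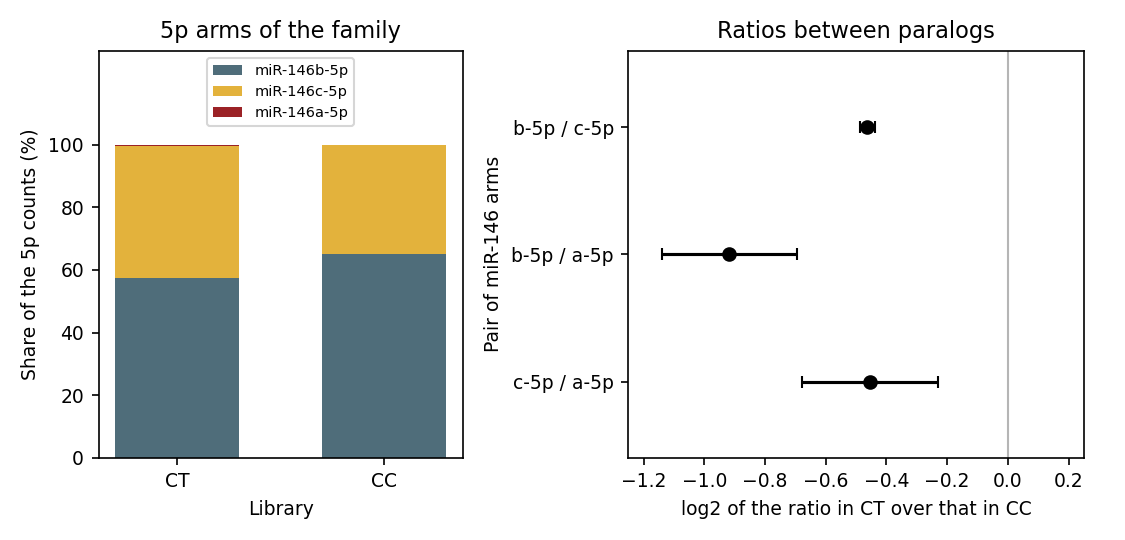
Left, share of each 5p arm in the 5p counts of the family, in percent, for CT and CC. Right, log2 of the ratio between paralogs in CT over that in CC, with exact 95% intervals; all 3 pairs lie below 0, between -0.92 and -0.45.

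The size of this shift was set beside that in other seed families, defined as rows with the same bases 2 to 8 and at least 50 counts each. There were 18 families with at least 2 such rows. The share of the leading row differed between CT and CC by a median of 2.15 percentage points, and the miR-146 seed ranked 2nd of 18 by the size of the shift. The first was the seed of miR-18a-5p and miR-18b-5p, at -8.66 points, which rests on 193 counts in CT and 160 in CC. Next below were the seeds led by miR-222a, at -7.30 points, and by novel_163, at -6.58 points. Among the 13 families with at least 10000 counts in all the miR-146 seed ranked 1st. A shift in points has little room where 1 row holds nearly all counts, as with miR-103-3p (97.6% in CT and 97.4% in CC). The ranks thus depend on this measure. With 1 library each, how far such shares vary between ducks of the same condition is unknown.

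**Figure D4:**
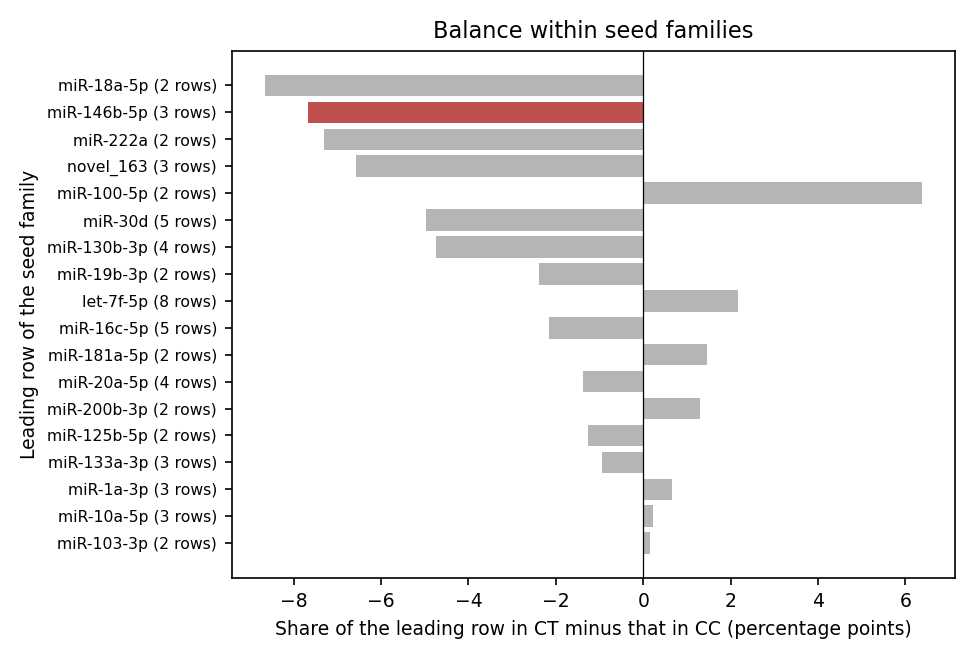
Share of the most abundant row within its seed family in CT minus that in CC, in percentage points, for 18 seed families named by their leading row. The miR-146 family, at -7.66 points, lies second to the miR-18 family.

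Within hairpins, the 3p arm made up a small part of the counts, and its share was the larger in CT in all 3, with intervals apart for mir-146b only. For mir-146b it was 0.811% in CT (0.736 to 0.892%) and 0.519% in CC (0.473 to 0.568%). There were 122 counts of the 5p arm for each of the 3p arm in CT and 192 in CC. The odds of the 3p arm were 1.57-fold higher in CT (1.37 to 1.79). For mir-146c the share was 0.276% in CT (0.226 to 0.334%) and 0.213% in CC (0.174 to 0.258%), and the odds ratio of 1.30 had an interval from 0.98 to 1.72. For mir-146a it was 2.49% in CT (1.14 to 4.67%) and 0.915% in CC (0.189 to 2.65%), with an odds ratio of 2.76 (0.68 to 16.0). The lower level of miR-146b in CT was thus seen in its 5p strand, and the 3p strand of the same hairpin lay within counting error of equality. At 20 nt, miR-146b-3p lies at the lower edge of the isolated fragments. Whether the gel cut differed between the libraries was not tested.

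Whether the rarer strand was generally favoured in CT was read from 23 of the 79 hairpins deposited with 1 row for each arm. These had 50 counts or more on the rarer arm over both libraries. Hairpins with fewer were not summarised, so the answer covers the 23 only. miR-9 and miR-181a, whose arms were not paired within 1 hairpin, are outside the set. Over the 23 hairpins the log2 of rarer over commoner arm, CT over CC, had a median of 0.01 (quartiles -0.41 and 0.24). Of them, 12 lay above 0 and 11 below. mir-146b ranked 2nd from the highest, at 0.65, next to mir-126 at 0.66, and mir-146c ranked 5th, at 0.38. At the other end were mir-200b at -0.70 and mir-200a at -0.77. mir-146a fell under the minimum of 50 counts on its 3p arm.

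**Figure D5:**
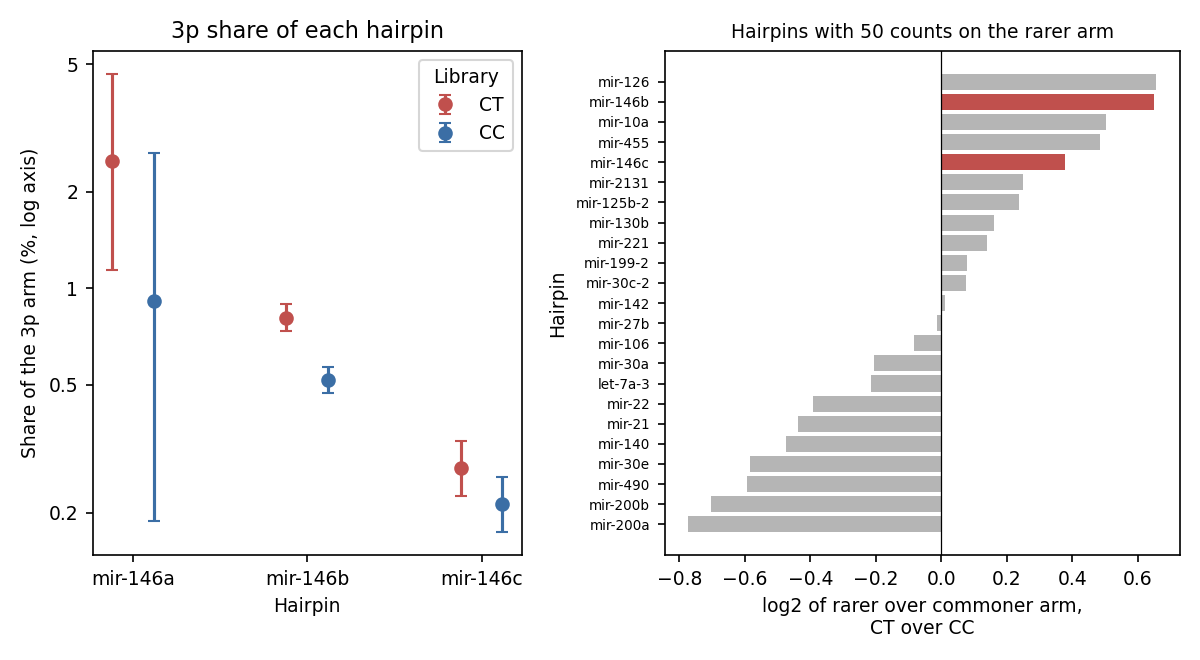
Left, share of the 3p arm in the counts of each miR-146 hairpin, in percent on a log axis, for CT and CC with exact 95% intervals. Right, log2 of the ratio of the rarer to the commoner arm in CT over that in CC for 23 hairpins, with mir-146b (0.65) and mir-146c (0.38) in red.

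Other miRNAs tied to NF-kB or Toll-like receptor signalling were taken from a list of 12 names, of which 9 matched a row and 8 had at least 50 counts. None of the 8 was 2-fold apart, against 7.38% of all rows, although miR-223 passed with TMM or median-of-ratios scaling. At least 1.5-fold apart were 1 higher and 1 lower, against 14.8% and 7.38% of all rows. Intervals excluded equality for 1 higher and 6 lower in CT, against 34.9% and 33.6% of all rows, a rule that reflects counting error alone. The list was chosen with earlier results of these data known. The median log2 ratio was -0.30, against 0.02 over the 149 rows. The list mixes miRNAs that such signalling induces with others that act on it. Its counts and median therefore have no common direction to read for NF-kB activity, which was not measured.

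The higher one was miR-147, which Toll-like receptors induce in mouse macrophages, at 116 CPM in CT and 74.1 CPM in CC (log2 ratio 0.64, 0.46 to 0.82). miR-223, which restrains neutrophils in mice, had 56 counts in CT and 121 in CC (-0.98, -1.46 to -0.51). miR-181b-5p, which in human endothelial cells lowers the import of NF-kB into the nucleus, had 147 CPM in CT and 212 CPM in CC (-0.53, -0.66 to -0.40). miR-9-5p, induced through NF-kB in human monocytes, had 402 CPM in CT and 553 CPM in CC (-0.46, -0.54 to -0.38).

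The other members of the list lay closer to equality. miR-125b-5p, which acts on the message for tumour necrosis factor in mice, had a log2 ratio of -0.39, and miR-21-5p, abundant in many inflamed tissues, had -0.21. let-7i, which lowers TLR4 in human bile duct cells, had -0.10, and miR-221-3p had -0.06 (-0.14 to 0.02). miR-155, the miRNA most closely tied to NF-kB besides miR-146a, had 1 count in each library, and miR-132, miR-212 and miR-222 matched no row by name. The row named miR-222a, left out by that match, had a log2 ratio of -0.49 (-0.56 to -0.42). Predicted rows were not matched to the list by sequence, so a listed miRNA among them would be missed.

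Among the 81 other rows with at least 1000 counts over both libraries, the 5 nearest to miR-146b-5p in log2 ratio were miR-214 (-0.74), miR-99a-5p (-0.74), novel_1 (-0.58), miR-10b-5p (-0.57) and miR-126-3p (-0.79). Their distances from it were 0.08 to 0.12 on the log2 scale. The likeness is that of a single difference between 2 libraries.

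Markers of cells that could carry miR-146 differed in both directions. Over all 149 rows, 34.9% were higher and 33.6% lower in CT with intervals that excluded equality. Of the white blood cell list, 3 of 4 names matched a row. miR-142-3p (log2 ratio 0.33, 0.13 to 0.53) and miR-142-5p (0.34, 0.09 to 0.60) were higher in CT and miR-223 was lower. miR-155 had 1 count in each library, too few for a ratio, and miR-150 matched no row. The list summed to 145 CPM in CT and 128 CPM in CC. The endothelial marker miR-126, with log2 ratios of -0.79 (-0.81 to -0.76) for the 3p and -0.13 (-0.27 to 0.01) for the 5p arm, summed to 5451 CPM in CT and 9301 CPM in CC. The intestinal epithelial list, with 5 of 6 names matched and miR-192 without a row, had 7 rows of at least 50 counts, 5 higher and 1 lower by that measure, and summed to 509192 CPM in CT and 453489 CPM in CC. The muscle list, matched through miR-1 and miR-133 only, had 5 such rows, 0 higher and 3 lower by that measure, and summed to 6638 CPM in CT and 8873 CPM in CC.

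miR-375, listed here as the enteroendocrine marker, had 3365 CPM in CT and 1206 CPM in CC, and which cells it came from was not tested. Pancreatic miR-216 and miR-217 rows, with 4 of 4 rows of at least 50 counts higher, summed to 2563 CPM in CT and 54.9 CPM in CC. Of the red blood cell markers, miR-451 stood at 3 counts in CT and 10 in CC, and miR-144-3p at 7 in CT and 9 in CC. Markers of several cell types thus differed between the libraries along with miR-146b-5p, and their part in the miR-146 values was not tested. Without the miR-216 and miR-217 rows in the totals, the log2 ratio of each member moved by 0.00362. This shift follows from the small part of those rows in the totals. It does not show how far other miRNAs of the same tissue differed, which was not tested.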

How the data were processed

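Small RNA of the duodenum was sequenced as 1 library per condition. Per the labels' protocols, RNA was extracted with Trizol and RNA of 20 to 30 nt was cut from a 15% gel loaded with 10 µg. The authors deposited read counts per mature miRNA and, per the file headers, TPM values. The deposited TPM equal counts divided by the column sum and scaled to 1e6, within 4.3e-05, and were not used further. For the aligner, database release and genome build: not given in the sources used here.

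Ratios have the exact conditional 95% interval, shares the exact binomial (Clopper-Pearson) interval, levels the exact Poisson interval, and paralog and arm ratios the conditional odds ratio. With 1 library per condition no test was possible. Reads without molecular identifiers are not independent molecules. A count of 0 would allow up to 0.569 CPM in CT and 0.520 CPM in CC (3 counts).

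The members and the lists were chosen with earlier results of these data known. Named are the 6 members, their neighbours in level, the NF-kB and TLR list, the 5 rows nearest to miR-146b-5p in ratio, rows with the seed, and the cell type markers. Names were matched without prefix, copy number and arm, and the commoner arm stood for a listed miRNA. Markers without a letter also matched lettered copies, and all arms were summed.

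Scaling alternatives were median-of-ratios size factors from DESeq2 1.42.0, TMM from edgeR 4.0.16, and totals without the 10 most abundant rows or without miR-216 and miR-217. Computation used Python 3.11.15, numpy 2.4.6, scipy 1.17.1, pandas 2.3.3, matplotlib 3.10.9, R 4.3.3 and, for folds, ViennaRNA 2.7.2. The intervals of ratios and odds ratios were tested on data simulated with counting error only. That simulation cannot show how they behave with differences between ducks. The intervals of shares and levels were not tested in this way.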

Additional observations from a re-analysis of the deposited data

How the results depend on the processing

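Of the settings below, taking miR-222a as miR-222 was chosen after seeing the data, and the others were planned. The arm share was planned for mir-146c only. The rankings of seed families and of hairpins by arm were not in the plan. TMM shifted log2 ratios by -0.05, size factors by -0.06 and totals without the 10 most abundant miRNAs by 0.06. Under these in turn miR-146b-5p had a log2 ratio of -0.71, -0.73 and -0.61, miR-146c-5p of -0.25, -0.27 and -0.14, and the family sum of -0.53, -0.55 and -0.43, each outside its counting interval and with the direction kept. The sign of miR-146b-3p, within counting error of equality, was positive in the last of these (0.04). The 10 miRNAs left out there, taken by mean CPM, include miR-146b-5p itself, so that setting is not independent of this member.

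With the 10 most abundant miRNAs, miR-146b-5p among them, dropped from the totals, levels were larger by construction. The values of miR-146b-5p are thus over totals that leave out its own counts. In CT and CC they were 460.5 and 371.6 CPM for miR-146a-5p, 11.7 and 3.43 for miR-146a-3p, 67476 and 102861 for miR-146b-5p, 552 and 536 for miR-146b-3p, 49447 and 54664 for miR-146c-5p, and 137 and 117 for miR-146c-3p.

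With all arms in the denominator miR-146b-5p held 57.1% in CT and 64.9% in CC, and adding novel_5 to it left shares and paralog ratios within their intervals. Of the NF-kB and TLR list, 1 was lower by 2-fold with TMM and 1 with size factors, and with the 1.5-fold rule 1 was higher and 1 lower. The median log2 ratio of this list, -0.30 in the main setting, lay between -0.39 and -0.21 over the settings. It was -0.39 with miR-222a taken as miR-222. With a minimum of 500 counts, or with at least 1 count in each library, it was -0.21. The number of all rows past 2-fold was 9 higher and 2 lower. It was 17 and 7 with a minimum of 10 counts, 3 and 0 with 500, and 29 and 17 with at least 1 count in each library, while the 1.5-fold rule gave 22 and 11, and 1 of the members lower. A pseudocount of 5 CPM left 1 row lower and took the log2 ratio of miR-146a-3p to 0.28. No paired analysis was possible because each condition has 1 library.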
